A study of Drosophila melanogaster with 3 samples.

Results

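Genome-wide binding of M1BP was examined at 10 genes of the Drosophila melanogaster heat shock and chaperone system, chosen by gene name from the 13945 protein-coding genes of the 6 main chromosome arms. They were the heat-inducible chaperones Hsp83, DnaJ-1, Hsp27, Hsp26 and Hsp23, the constitutive chaperones Hsp60A, Hsc70-3, Hsc70-4 and Hsc70-5, and Hsf, the transcription factor of the response. Peaks came from chromatin immunoprecipitation with sequencing (ChIP-seq) on whole embryos of both sexes aged 0-24 hours, chromatin sonicated to 200-800 bp. The embryos carried a stable transgene for CG9797, the M1BP protein, fused to GFP at its C-terminus. The series has 1 group of 3 biological replicates. The labels name no heat shock, no promoter for the transgene and no other fly line, and a line of free text calls the libraries input controls whereas the assay and antibody fields describe immunoprecipitations. They were read as immunoprecipitated libraries, and that conflict bears on every value given here.

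M1BP is a zinc-finger protein that binds Motif 1, an element of core promoters, and is known mainly from promoters of broadly active genes. Chaperones help proteins fold and keep damaged ones soluble. After heat stress the factor Hsf binds heat shock elements, arrays of short inverted repeats, and drives the inducible genes, several of which are known for GAGA elements and TATA boxes. The Hsc70 and Hsp60 proteins are made in unstressed cells as well, and so is Hsp83, the fly Hsp90, which heat induces further. The data hold binding and no expression, so whether a gene was active or induced in these embryos was not measured.

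A gene was counted as bound when a summit of the authors' thresholded list (4598 peaks, filtered by irreproducible discovery rate, IDR) lay within 1000 bp of any of its annotated start sites. Each peak carries the authors' signal value, a caller's score of unstated scale, and ranks are by that value, with rank 1 the strongest. In replicates 1, 2 and 3, 8577, 3063 and 3520 of the 30000 relaxed entries had a −log10 q of at least 2, so the lists differ in how far down they hold clear peaks. Of the 10 genes, 7 were bound, while the same rule called 36.7% of all protein-coding genes. The bound genes were Hsp83, DnaJ-1, Hsp27, Hsp60A, Hsc70-4, Hsc70-5 and Hsf, and the unbound ones Hsp26, Hsp23 and Hsc70-3. Among inducible chaperones 3 of 5 were bound and among constitutive chaperones 3 of 4, too few genes for a difference to be read. When the peak interval itself had to cover a start site, 4 of the 10 genes (1 inducible, 2 constitutive and Hsf) were bound, against 30.1% of all genes. With the 4598 strongest entries of 1 replicate in place of the thresholded list, replicates 1, 2 and 3 gave 7, 8 and 7 of the 10 genes (7.33 ± 0.58, SD, n = 3), against 36.9%, 34.9% and 34.8% of all genes. The count of inducible genes was 3 in each replicate, and that of constitutive genes was 3, 4 and 3, since replicate 2 added Hsc70-3.

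In the thresholded list 9 summits fell within reach of these genes, but 3 of them lay nearest to the start site of a neighbour. These were the only thresholded summit at Hsc70-5, nearest to CG8531, the stronger one at DnaJ-1, nearest to Usp47, and the stronger one at Hsf, nearest to Pcl. Counting each summit only for the gene with the nearest start site left 6 of the 10 genes, 3 of 5 inducible and 2 of 4 constitutive, against 26.7% of all genes. The relaxed lists of 30000 entries hold background as well as peaks. They had 21 entries within 1000 bp of these start sites in the pooled list, and 21, 23 and 18 in replicates 1, 2 and 3. An entry of this kind stood near 66.2% of all genes in the pooled list and near 65.6%, 63.3% and 64.4% in the replicates, so its presence alone says little.

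The sequences under and beside the summits are given first, so that the promoter words found at bound and unbound genes can be seen in place. They were read from the NCBI Release 6 genome (dm6 coordinates), 5′ to 3′ on the strand of the gene and up to its start site, with short motifs in capitals. The core of Motif 1 was searched as GGTCACACT. A unit of the heat shock element was searched as GAANNTTC or as TTCNNGAA. The GAGA element was searched as GAGAG, the TATA box as TATAAA, and the DNA replication-related element (DRE), another core promoter word, as TATCGATA. Both strands were searched, and overlapping matches run together in capitals. A match describes letters only.

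The inducible genes with a thresholded summit of their own are DnaJ-1 (chr3L:5752180-5752379, minus strand, including the first 10 transcribed bases), Hsp27 (chr3L:9383783-9384062, plus strand) and Hsp83, of which only 30 bases around the heat shock element unit before its downstream start site are given (chr3L:3193137-3193166, plus strand). In DnaJ-1 capitals mark TATA at 2 places, the DRE and, across the start, a heat shock element unit. In Hsp27 they mark a GAGA word and the TATA box.
DnaJ-1: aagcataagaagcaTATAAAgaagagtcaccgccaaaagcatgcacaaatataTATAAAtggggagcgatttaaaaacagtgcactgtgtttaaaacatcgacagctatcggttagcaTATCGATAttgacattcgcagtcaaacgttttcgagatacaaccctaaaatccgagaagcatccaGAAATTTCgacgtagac
Hsp27: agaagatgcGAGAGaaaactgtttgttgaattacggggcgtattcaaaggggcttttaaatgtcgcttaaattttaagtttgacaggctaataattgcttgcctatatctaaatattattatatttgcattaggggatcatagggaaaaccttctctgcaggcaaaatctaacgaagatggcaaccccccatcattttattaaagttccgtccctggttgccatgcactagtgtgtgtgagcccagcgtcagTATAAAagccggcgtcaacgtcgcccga
Hsp83: agaagcctctaGAAGTTTCtagagacttcc

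The unbound inducible genes Hsp26 (chr3L:9377428-9377657, minus strand, up to the upstream of its start sites) and Hsp23 (chr3L:9381662-9381881, plus strand) are shown for contrast. Capitals mark heat shock element units, GAGA runs (written CTCTC where they lie on the other strand) and TATA.
Hsp26: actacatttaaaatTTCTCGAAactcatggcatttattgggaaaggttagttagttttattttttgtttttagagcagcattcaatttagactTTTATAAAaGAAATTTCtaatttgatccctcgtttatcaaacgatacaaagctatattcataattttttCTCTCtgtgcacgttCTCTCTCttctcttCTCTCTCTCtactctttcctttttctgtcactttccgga
Hsp23: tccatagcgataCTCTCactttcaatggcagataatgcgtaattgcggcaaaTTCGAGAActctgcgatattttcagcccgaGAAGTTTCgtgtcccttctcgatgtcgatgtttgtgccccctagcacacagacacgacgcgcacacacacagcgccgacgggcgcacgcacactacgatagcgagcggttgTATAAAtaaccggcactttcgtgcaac

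The stretch before Usp47, the neighbour whose peak lies within reach of DnaJ-1, is shown because it holds an exact Motif 1 core, in capitals and on the other strand (chr3L:5752883-5752972, plus strand).
Usp47: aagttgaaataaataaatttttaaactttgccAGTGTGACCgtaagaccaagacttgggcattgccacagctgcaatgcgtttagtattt

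Of the constitutive genes, Hsc70-4 is shown for the strongest peak of the 10 genes (chr3R:15242427-15242686, plus strand), with the summit 161 bp before the start, and Hsp60A for the position of its summit, 46 bp before the start (chrX:11108352-11108481, plus strand). Capitals mark a heat shock element unit and TATA in Hsc70-4, TATA in Hsp60A, and in each a copy of the Motif 1 core with 1 mismatch between summit and start, which begins 46 bases before the start of Hsc70-4 and 12 before that of Hsp60A. No such copy was found in the stretches of the inducible genes, of which that of Hsp83 is short. The stretches differ in length, and the share of all promoters with a 1-mismatch copy was not computed. A difference between the classes can therefore not be read from them.
Hsc70-4: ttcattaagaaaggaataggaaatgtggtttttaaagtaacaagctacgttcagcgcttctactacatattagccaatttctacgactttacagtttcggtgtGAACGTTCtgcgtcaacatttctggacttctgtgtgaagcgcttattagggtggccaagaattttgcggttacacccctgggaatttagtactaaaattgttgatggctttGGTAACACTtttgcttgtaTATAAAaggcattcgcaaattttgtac
Hsp60A: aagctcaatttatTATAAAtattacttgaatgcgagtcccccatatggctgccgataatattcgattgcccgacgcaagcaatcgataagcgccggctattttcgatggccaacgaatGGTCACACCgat

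Among the inducible chaperones, Hsp83, which encodes the fly Hsp90, had the strongest peak. It spanned 3L 3192945 to 3193270, and its summit lay in the annotated 5′ UTR between the gene's 2 start sites, 105 bp before the downstream one. The signal value was 976 and the rank 1109 of 4598. In the replicates the same place ranked 1587, 426 and 2503 (replicates 1, 2 and 3), with summits 111, 111 and 110 bp before that start site. The position was thus near-constant while the rank varied 5.88-fold, the widest spread among the 5 bound genes whose own summit was listed in all 3 replicates. Replicate 3 also listed an entry 150 bp before the upstream start site at rank 2994. Replicate 2 had 2 faint entries nearest to CG14965, at ranks 28557 and 29782. A further thresholded summit (383, rank 3210) lay inside the gene, 1016 bp after its downstream start site and just beyond the window.

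DnaJ-1 encodes the fly Hsp40, the partner that stimulates Hsp70. Its own summit lay 78 bp before the start site (3L, peak 5752206 to 5752424, between genes) with signal value 579 and rank 2116. Replicates 1 and 3 listed it at ranks 2294 and 3647, with summits 75 and 89 bp before the start. Replicate 2 had no entry nearest to DnaJ-1. The neighbouring peak 24 bp from the start of Usp47, a ubiquitin protease gene that starts 784 bp away, was stronger. Its signal value was 921 and its rank 1233, and it ranked 1517, 884 and 955 in replicates 1, 2 and 3. The entries of all 3 replicates therefore met the distance rule for DnaJ-1, but in replicate 2 only through the Usp47 peak. Replicates 1 and 3 placed another entry there at ranks 3702 and 2199, and the pooled list one in the coding sequence of DnaJ-1 at rank 21760.

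Hsp27, Hsp26 and Hsp23 encode small heat shock proteins, which hold unfolded proteins in solution, and lie close together on 3L in a cluster with Hsp22, Hsp67Ba and Hsp67Bc. Of these 3, Hsp27 alone was bound. Its peak (3L, 9383873 to 9384008, between genes) had a signal value of 533 and rank 2314, with the summit 188 bp before the start. The replicates ranked it 1970, 2956 and 2891, with summits 164, 54 and 189 bp before the start, so replicate 2 placed it closer to the gene. Fainter entries in the coding sequence of Hsp27 stood at rank 19995 in the pooled list and 12248 in replicate 2.

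At Hsp26 the pooled list had entries 29 bp after and 235 bp before a start site, with signal values of 134 and 99.4 and ranks of 8750 and 13271. The replicates listed Hsp26 at ranks 6543, 13726 and 11043, at places 216 bp before, 240 bp after and 924 bp before a start site. All lay outside the 4598 strongest, and they did not share a position. That of replicate 3 fell inside Hsp67Ba. Replicate 1 alone gave a −log10 q above 1 there (3.64, against 0.35 and 0.14), and replicate 3 had another entry at rank 22789. Hsp23 was listed at rank 16285 in the pooled list, inside its coding sequence. Replicate 1 had no entry within 1000 bp of the Hsp23 start, replicate 2 had entries at ranks 8297 (65 bp before the start) and 9133, and replicate 3 had one at rank 14667. The nearest thresholded summit to the start of Hsp23 was that of Hsp27, 1993 bp away.

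Over the whole 16184 bp stretch around this cluster, with 8 protein-coding genes wholly inside it, the thresholded list held 1 summit, that of Hsp27. The pooled list held 10 entries, of which the strongest after Hsp27 had a signal value of 159 at 507 bp from Hsp22 (rank 7229). Replicates 1, 2 and 3 held 6, 12 and 6 entries, some of which in replicates 1 and 2 lay nearest to a gene only partly inside the stretch. Entries 502 and 423 bp from the start of Hsp22 ranked 4931 in replicate 1 and 6051 in replicate 3. In replicate 2 an entry 44 bp from the start of Hsp67Bc ranked 4160, inside the 4598 strongest of that replicate.

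**Figure D1:**
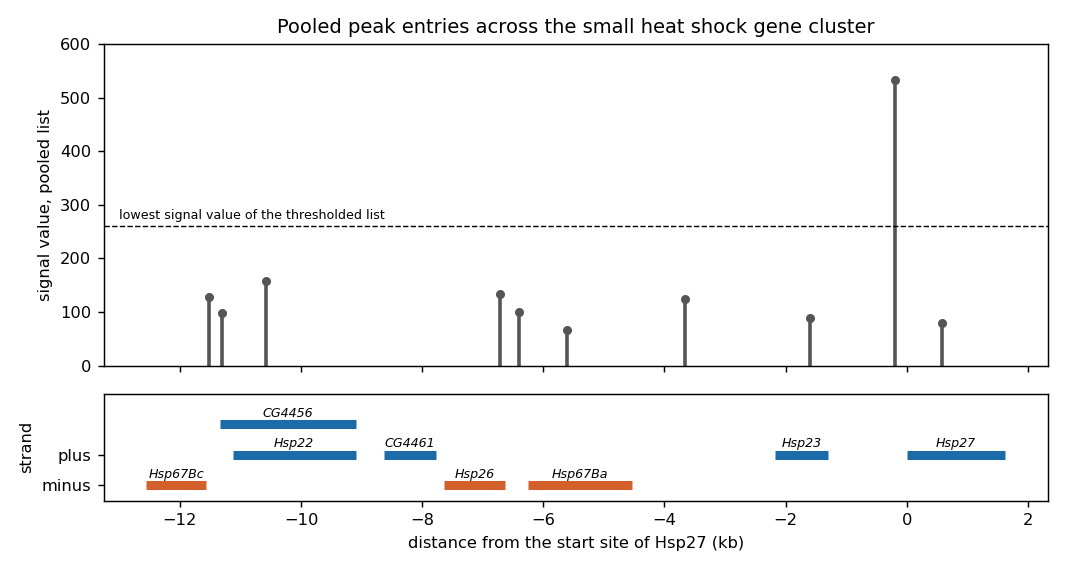
Signal value of every pooled entry (top, grey pins) against distance from the start site of Hsp27 in kb, above the protein-coding genes of the small heat shock cluster by strand (bottom; CG4456 is on the plus strand and raised because it overlaps Hsp22). The dashed line is the lowest signal value of the thresholded list, 261, and only the pin at Hsp27, with 533, stands above it.

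Among the constitutive chaperones, Hsc70-4, the main cytosolic Hsc70, had the strongest peak of all 10 genes. The peak covered 3R 15242163 to 15242766, with a signal value of 1916 and rank 198, and its summit lay between genes, 161 bp before the most upstream of 6 start sites. The replicates ranked it 170, 422 and 161, with summits 159, 118 and 184 bp before that start. It was the strongest of the 10 genes in each replicate, although in replicate 2 Hsp83 (rank 426) followed closely. Fainter entries inside the gene had ranks 21006 (pooled), 9175 (replicate 1) and 7058 and 11153 (replicate 2). The start site of tefu lies 451 bp from the nearest one of Hsc70-4, but the summit was nearer to Hsc70-4. The peak interval was wider than that distance, and an interval cannot assign the bound factor to 1 gene of a close pair.

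Hsc70-5, the mitochondrial Hsp70, shared its peak with CG8531, whose start site lies 301 bp away. The peak lay on 2R from 14256265 to 14256705, with signal value 1521 and rank 424. Its summit was 54 bp from the CG8531 start and 247 bp from that of Hsc70-5. The replicates ranked it 361, 804 and 362, and each placed it nearer to CG8531. Only replicate 2 had an entry nearest to Hsc70-5 itself, 22 bp before a start site and in the 5′ UTR of the other, at rank 3015. A second entry on the CG8531 side ranked 9866 in the pooled list and 27745, 2223 and 5125 in replicates 1, 2 and 3. Peak intervals cannot assign the bound factor to one gene of such a pair.

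Hsp60A, the mitochondrial chaperonin, had a peak on X from 11108269 to 11108562 with signal value 777 and rank 1553. Its summit lay 46 bp before the upstream start site, outside the gene. The replicates ranked it 1854, 1330 and 1455, with summits 54, 39 and 51 bp before the start. Both rank (1.39-fold from best to worst) and position varied little between replicates. Entries in an intron ranked 7081 in the pooled list, 7227 in replicate 1 and 11596 in replicate 2.

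Hsc70-3, the BiP of the endoplasmic reticulum, missed the thresholded list by a small margin. Its best pooled entry, in an intron 102 bp before one of 4 start sites, had a signal value of 259 and rank 4630, where the weakest thresholded peak had 261. Replicate 2 ranked this place 2658, inside its strongest entries, and replicate 1 ranked it 5723. Replicate 3 listed nothing there. Its only entry at Hsc70-3 ranked 7067 and lay 195 bp before the most upstream start site. Farther before that start site, entries ranked 6192 in the pooled list (396 bp before it) and 4000 in replicate 2 (523 bp before it). The other pooled entry, at an internal start site, ranked 14213. The remaining entries at Hsc70-3 comprised 1 in replicate 2 (rank 7951) and 5 in replicate 1, from rank 8499 to rank 25775.

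Hsf had a thresholded summit 15 bp inside the gene, in its 5′ UTR (2R, 18134536 to 18134764), with signal value 577 and rank 2125. The replicates ranked it 2356, 2205 and 2528, the narrowest spread (1.15-fold) of the 7 genes whose own start site had an entry in all 3 replicates. Replicate 2 placed the summit 150 bp inside the gene, and replicates 1 and 3 at 7 and 15 bp. A second peak 31 bp from the start of Pcl, a Polycomb group gene that starts 792 bp away, was of like strength (588, rank 2087), and the replicates ranked it 2509, 1689 and 1597. Replicate 3 listed another entry near Pcl at rank 2581. Faint entries at Hsf itself ranked 23477 in the pooled list and 7760, 9939 and 8157 in the replicates.

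**Figure D2:**
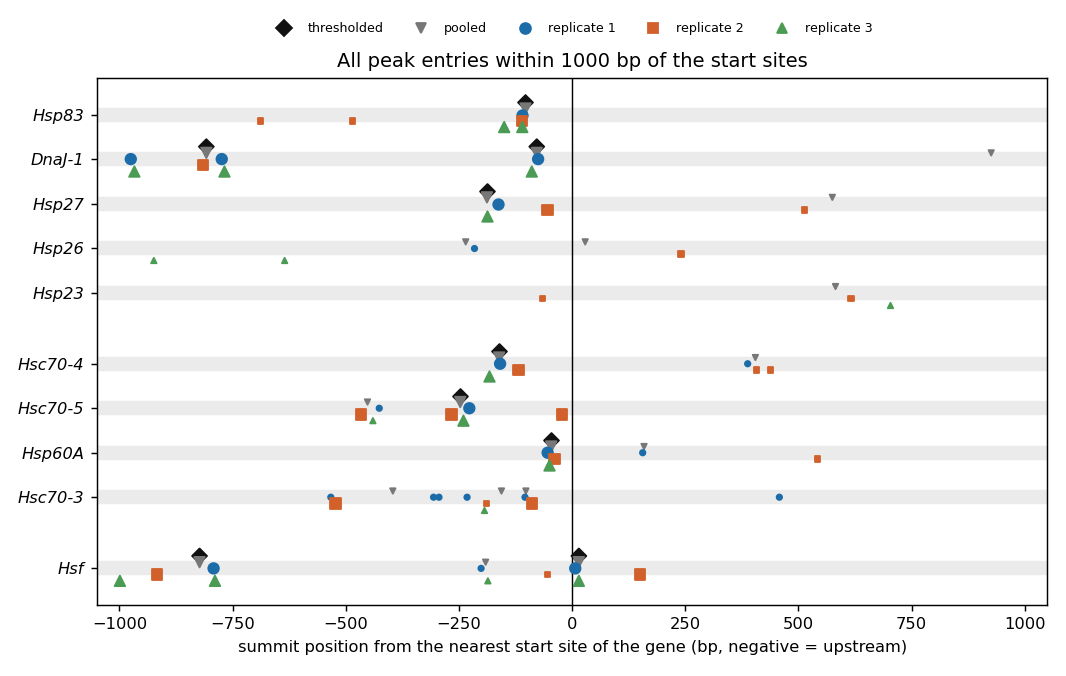
Position of every listed summit within 1000 bp, in bp from the nearest start site of each gene (negative is upstream), by peak list. Large symbols are entries among the 4598 strongest of their list and small ones the rest. Large symbols of all lists line up at Hsp83, Hsp60A and Hsc70-4, those of DnaJ-1 and Hsf form 2 groups, and Hsp26 and Hsp23 have small symbols only.

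By the distance rule, ordered by rank in the thresholded list and by each gene's strongest reachable summit, the bound genes ran Hsc70-4 (198), Hsc70-5 (424), Hsp83 (1109), DnaJ-1 (1233), Hsp60A (1553), Hsf (2087) and Hsp27 (2314). In replicates 1 and 3 Hsc70-4 and Hsc70-5 led as well. In replicate 2 Hsp83 came between them. The middle of the order was not stable: Hsp60A ranked below Hsp83 in replicates 1 and 2 and above it in replicate 3, and DnaJ-1 ranked above Hsp83 in replicates 1 and 3 and below it in replicate 2. Hsp26 and Hsp23 came below the bound genes in every replicate that listed them.

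**Figure D3:**
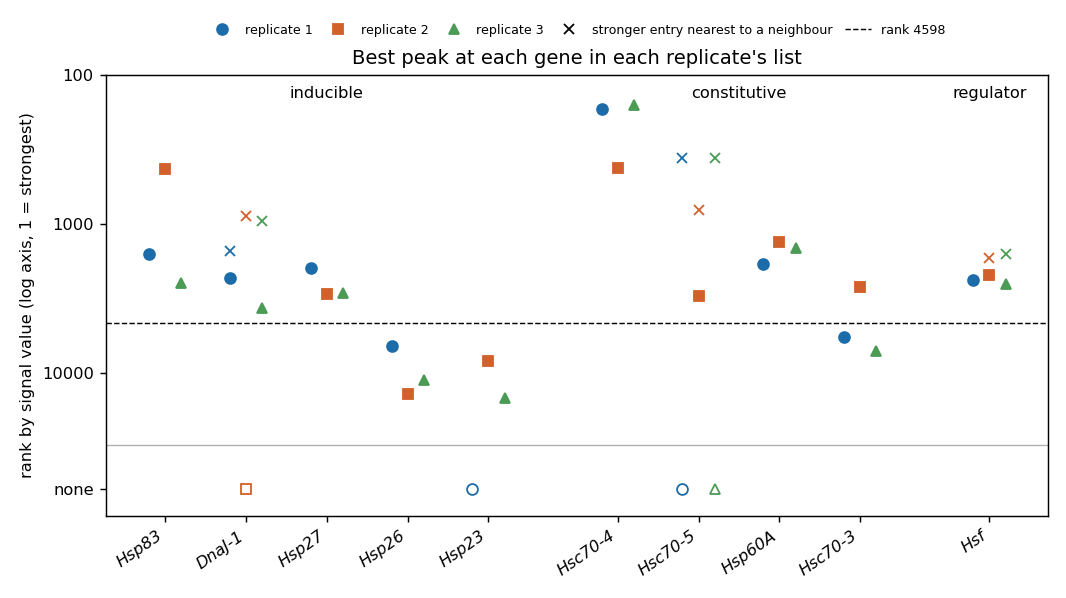
Rank by signal value (log axis, strongest at the top) of the best entry nearest to each gene's own start site in each replicate's list (filled symbols; open symbols on the line marked none had no such entry). Crosses are stronger entries within 1000 bp that lie nearest to a neighbouring gene, the dashed line is rank 4598 and the grey line the list's end at 30000. All filled symbols of Hsc70-4 lie between ranks 161 and 422, and those of Hsp26 and Hsp23 lie below the dashed line.

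Set side by side, inducible and constitutive chaperones overlapped in strength. The best pooled signal values of the inducible genes were 976, 921, 533, 134 and 88.3 (median 533), and those of the constitutive genes 1916, 1521, 777 and 259 (median 1149). The median over the 9226 protein-coding genes with a pooled entry was 317. Among those genes Hsp83 stood at percentile 81.7, DnaJ-1 at 79.8, Hsp27 at 65.3, Hsp26 at 28.3 and Hsp23 at 15.8, and of the constitutive genes Hsc70-4 stood at 96.6, Hsc70-5 at 92.8, Hsp60A at 75.3 and Hsc70-3 at 44.3. With only the summits nearest to each gene's own start, the medians were 533 for 5 inducible genes and 777 for the 3 constitutive genes that then had an entry. With any summit within 1000 bp, the median ranks of the inducible genes were 1779, 2956 and 2891 in replicates 1, 2 and 3. There 4, 5 and 5 of the 5 genes were listed. Those of the 4 constitutive genes were 1108, 1067 and 909. With own-start summits only, the medians were 2132, 5626.5 and 3647 for the 4, 4 and 5 inducible genes listed. They were 1854, 1994 and 1455 for the 3, 4 and 3 constitutive genes listed. Among listed genes the constitutive median was thus the stronger in each replicate, but every replicate had inducible genes above constitutive ones. The own-start medians leave out genes without such an entry: Hsc70-5 in replicates 1 and 3, Hsp23 in replicate 1 and DnaJ-1 in replicate 2. Where these would fall is unknown, so the own-start order does not hold for the whole classes. The genes are too few and not independent for a test. Counting Hsp83, which is abundant without stress, as constitutive gave 2 of 4 inducible and 4 of 5 constitutive genes bound.

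**Figure D4:**
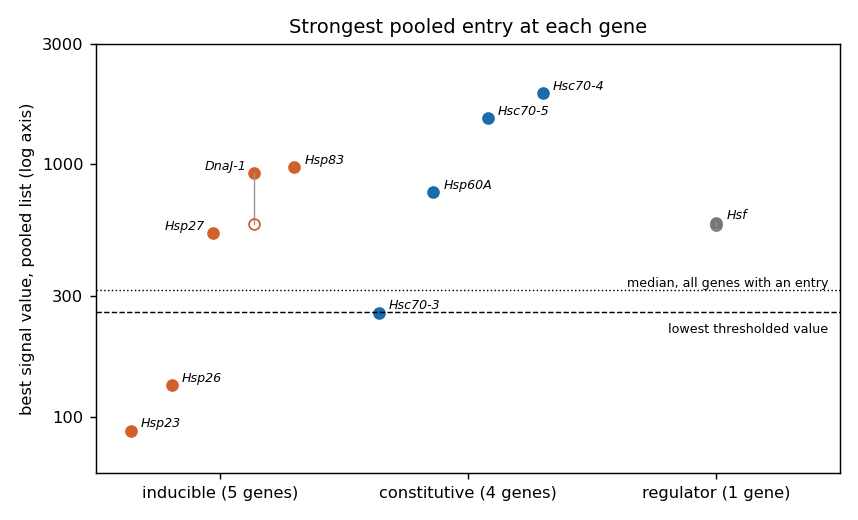
Best signal value in the pooled list (log axis) at each of 5 inducible and 4 constitutive chaperone genes and Hsf (filled circles). Open circles joined by a line give the best value at the gene's own start site where a neighbour's peak is stronger. Hsc70-5 has no open circle, since its pooled entries all lay nearest to CG8531. The dotted line is the median over all genes with a pooled entry and the dashed line the lowest thresholded value. The inducible genes run from 88.3 to 976 and the constitutive ones from 259 to 1916.

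The wider chaperone system was taken from a list of 29 further genes, of which 27 matched (3 of them through RefSeq synonyms). Of these, 8 were bound: 1 of 12 inducible genes (8.33%) and 7 of 15 constitutive genes (46.7%), against 36.7% of all protein-coding genes. The bound inducible gene was stv, a co-chaperone of Hsp70 (signal value 285, rank 4286), which ranked 3861, 13338 and 3528 in replicates 1, 2 and 3. The strongest of the constitutive ones were Droj2, an Hsp40 gene (2066, rank 149), Cdc37, an Hsp90 co-chaperone (1412, rank 535), and Roe1, the mitochondrial GrpE (1389, rank 558). Then came Gp93, the Hsp90 of the endoplasmic reticulum (772, nearest to mfrn), the immunophilin gene Fkbp59 (706), Stip1, an Hsp70-Hsp90 adaptor (435), and the mitochondrial Hsp90 gene Trap1 (277, nearest to Bap170). In replicates 1, 2 and 3 Droj2 ranked 103, 486 and 61, Cdc37 667, 523 and 418, and Roe1 696, 294 and 1187.

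With these genes added, 4 of 17 inducible genes (23.5%) and 10 of 19 constitutive genes (52.6%) were bound, against 36.7% of all genes. In replicates 1, 2 and 3 the inducible share was 29.4%, 41.2% and 29.4%, and the constitutive share 63.2%, 52.6% and 57.9%, so with all 17 inducible genes the constitutive share was the higher in each replicate. The 6 Hsp70 copies are near-identical, so read placement among them is uncertain, and 5 of them had no entry in any list (Hsp70Ab had 1, at rank 14157 of replicate 1). Without these copies 4 of 11 inducible genes (36.4%) were bound, about the share of all genes. In replicates 1, 2 and 3 the inducible share was then 45.5%, 63.6% and 45.5%, so in replicate 2 it was above the constitutive 52.6% and the order of the classes turned. Of the 7 inducible genes counted in replicate 2, 3 (Hsp22, CG4456 and Hsp67Bc) rested on the same entry at rank 4160. Hsp68 was counted there at rank 3508. Only 3063 entries of replicate 2 had a −log10 q of at least 2, and both ranks lie beyond that number. So does rank 3602, at which the constitutive gene Trap1 was counted. In the thresholded list, counting each summit only for the gene with the nearest start site left 8 of 19 constitutive genes (42.1%). The inducible counts stayed at 4 of 17 (23.5%) and, without the Hsp70 copies, 4 of 11 (36.4%), against 26.7% of all genes. By the distance rule the inducible count changed when 1 replicate was left out. Requiring a summit within 100 bp in both remaining replicates left 2 of 17 inducible genes (11.8%, or 18.2% of the 11) without replicate 1. The same 2 of 17 were left without replicate 3, since Hsp27 and stv were lost both times, and 4 of 17 without replicate 2. At Hsp27 the replicate 2 summit lay 54 bp before the start, against 164 and 189 bp in replicates 1 and 3. With summits within 250 bp counted as shared, Hsp27 was kept each time and stv was lost again without replicates 1 and 3. At 100 bp the constitutive count was 8, 9 and 8 of 19 (42.1%, 47.4% and 42.1%) without replicates 1, 2 and 3. All genes gave 20.9%, 28.8% and 23.9% by that rule, also below their 36.7% in the full list. Hsp68 stood at the edge of the rule. A thresholded summit (1198, rank 782) lay 1014 bp from its start. Replicates 1 and 3 placed summits at 972 and 979 bp, both nearest to the cohesin gene SMC1. Replicate 2 counted Hsp68 through another entry, nearest to Hsp68 itself, 66 bp from its start at rank 3508. Lower-ranked entries lay 66 bp from that start in the pooled list (rank 9794) and 198 bp from it in replicate 3 (rank 4728). Replicate 1 listed none closer than its summit at 972 bp. The genes were listed with earlier results of these data known, so these shares are a description.

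The Motif 1 core occurred exactly within 100 bp of 14.5% of all thresholded summits. It occurred at 2 of the 9 summits counted here, those nearest to Usp47 and Pcl, and at 0 of the 6 nearest to the 10 genes. With 1 mismatch allowed it was also found at the Hsp60A summit, at the Hsf summit and at 2 places beside the summit shared by Hsc70-5 and CG8531. With that allowance 33.2% of all thresholded summits held a match. The copy in the Hsc70-4 sequence lies more than 100 bp from its summit and is not among these. In windows from 250 bases before to 50 bases after each start site, no window of the 10 genes held the exact core (22 windows), against 6.05% of 13945 promoters.

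Heat shock element units, TATA and GAGA occurred in both classes, and the DRE at inducible genes only. A heat shock element unit lay in a promoter window of 4 of 5 inducible genes (not Hsp27) and 3 of 4 constitutive genes (not Hsc70-5), against 15.9% of all promoters, each taken at its most upstream start site only. The comparison is uneven, since a gene with several start sites has several windows. Within 100 bp of the summit, a unit was found at 4 of the 9 counted summits, against 10.7% of all thresholded summits. It lay 7 bp from the summit of Hsc70-4, 40 bp from that of Hsp83 and 75 bp from that of DnaJ-1. At the summit shared by Hsc70-5 and CG8531 it lay 62 bp away. At Hsp27 the centre of a unit lay at −147 bp from the summit along the plus strand, outside the promoter window. TATA was present in a window of all 5 inducible and all 4 constitutive genes, against 45.8% of promoters, and it began 28, 27 and 30 bases before a start site in Hsp27, Hsp23 and Hsp83, 28 before a start site in Hsp26 and 27 before one in Hsc70-4. The GAGA word marked above at Hsp27 also lies before that window. Within the windows it was found at 2 inducible genes (Hsp26 and Hsp23) and 3 constitutive genes (Hsc70-3, Hsc70-4 and Hsc70-5), against 29.7% of promoters. The DRE was found at DnaJ-1, 10 bp from its summit, and at Hsp83, and at 0 of 4 constitutive genes, against 9.36% of promoters.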

How the data were processed

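The authors' notes deposited with the 5 peak lists place them on dm6. They derive a relaxed list from each replicate's alignment and 1 control file, a pooled list from the 3 alignments with that control, and the IDR list from those relaxed lists. No source used here names the caller, its settings or the IDR threshold. The deposited signal value is the authors' score and the deposited −log10 q-value is capped. Signal values were compared only within a list, or between the pooled and thresholded lists, where a peak has the same value in both. Between replicates ranks are set side by side, and −log10 q-values only where they are named. The pooled and thresholded lists hold the replicates' own reads and are no independent support. The files hold no read counts, so depth is unknown.

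Start sites came from Ensembl release 115 (BDGP6, dm6 coordinates), sequence from NCBI Release 6: the largest peak ends lay inside all 6 arms and 99.9% of 13901 start codons read ATG. Coordinates count from 1. The matching functions were tested on simulated data. No p-values were computed: there is 1 group, and genes are not replicates. Members, gene lists and motifs were chosen with earlier results of these data known. Named genes are the 10 members, genes nearest to a counted summit, and bound genes of the wider list, and Hsp68, Hsp70 copies and unbound cluster genes were added after their values were seen. Python 3.11.15, numpy 2.4.6, pandas 2.3.3 and matplotlib 3.10.9 were used.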

Additional observations from a re-analysis of the deposited data

How the results depend on the processing

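The 7 bound genes became 4 when the peak interval itself had to cover a start site (Hsp83, Hsp60A, Hsc70-4 and Hsf), and 1 inducible gene was then left, against 3 by the 1000 bp rule. In the other settings the count for the 10 genes stayed between 6 and 8. Leaving out 1 replicate, with a summit within 100 bp in both others, gave 6 to 7 of the 10 genes (6, 7 and 6 without replicates 1, 2 and 3), 2 to 3 inducible genes and 3 constitutive genes. Hsp27, and stv of the wider list, were lost without replicate 1 and without replicate 3. The wider list then gave 5 to 7 genes and all genes 20.9% to 28.8%, or 26.6%, 31.2% and 28.4% without replicates 1, 2 and 3 when summits within 250 bp counted as shared, where the 10 genes gave 7 each time. Above the median signal value (538) the wider list had 5 bound genes, against 8, and all genes 22.8%. All genes gave 31.1% at 250 bp, 34.5% at 500 bp, 38.6% at 1500 bp (chosen after seeing the data, where Hsp68 joined), 30.1% with the interval covering a start site, 26.7% by nearest start site, 40.9% in the pooled list at −log10 q of at least 2, and 34.9% and 34.8% in replicates 2 and 3 alone. With 1 mismatch, 4 genes in place of 2 had the Motif 1 core near a counted summit. The strongest signal value within 250 bp was 579 at DnaJ-1 and 577 at Hsf. No paired analysis was possible because there is 1 group.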
